A study of Drosophila melanogaster with 4 samples.

Results

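The genes described here, 5 genes of protein and membrane turnover, were measured in the larval airway of Drosophila melanogaster with ectopic expression of the immune receptor PGRP-LE. They were taken by their gene numbers from the 244 genes that the authors selected as changed, and all 5 were found there. Atg1 (CG10967) and mv (listed under its older number, CG11814) belong to the vesicular side, that is autophagy and lysosomal traffic. Rpt6 (CG1489, named Pros45 in the file), Uch (CG4265) and APP-BP1 (CG7828, unnamed in the file) belong to the proteasome, ubiquitin and ubiquitin-like side. The authors selected the 244 genes on the same arrays that gave the ratios, so a ratio away from 0 in any of the 5 is a condition of being listed and not a finding, and no test was run on it.

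The samples were tracheae dissected from third-instar larvae of about 10 days raised at 22 °C, with 20 pairs of tracheae behind each RNA. One RNA came from the progeny of the NP2610 driver strain crossed to a UAS-PGRP-LE strain, in which the driver switches on PGRP-LE in the airway, and the other came from the NP2610 driver strain alone. Both therefore carry the driver, while the second parent strain is present in the cross alone, so PGRP-LE and genetic background cannot be told apart. The number of driver copies in each was not compared here. The RNAs were set against each other on 4 two-colour arrays, 2 of them titled as biological and 2 as technical replicates. Each technical array is taken here to belong to the biological replicate of the same number, which the titles do not state.

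Cells break down their own components by a pair of main routes. In autophagy, membranes enclose cytoplasm and deliver it to the lysosome, and the Atg1 kinase starts that process. In the other, proteins tagged with ubiquitin are unfolded and cut by the proteasome, while the ubiquitin-like protein NEDD8 switches on the cullin ligases that attach many of those tags. Both touch the immune deficiency (IMD) pathway that PGRP-LE activates: ubiquitin chains carry its signal inside the cell, and in flies PGRP-LE is also known for inducing autophagy of Listeria.

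The only values per gene are the authors' mean log2 ratio over all valid spots of the arrays, its standard deviation (SD) and the number of spots. With at least 6 spots per gene on 4 arrays, some spots share an array and its RNAs, so the SD is a spread between spots and not a replicate error, and values of single arrays were not tied to genes here. A second table holds signed values of 32448 numbered spots on each of the 4 arrays with no gene names. Its column medians ran from -0.41 to 0.98, and over all spots the 6 pairs of arrays correlated at an r between -0.09 and 0.11. The pairs that share a biological replicate stood at -0.09 and 0.0082, and the pairs across replicates ran from -0.08 to 0.11. No filter on weak spots was applied to them here, so the r describes all spots of the arrays. The numerator of the ratio is not stated. It is likely the cross, which the file names as its hybridisation group and which fills channel 1 on every array. In that reading "higher" means higher in PGRP-LE tracheae. The listed antimicrobial attacin, cecropin, diptericin and defensin genes all had positive ratios, on the side of mv, Atg1 and Uch. In the authors' deposited table they ran from 2.02 (SD 0.52) for AttC to 0.86 (SD 0.35) for DptB. The direction itself was not tested. On 2 of the 4 arrays the dye fields and the labelling protocols name different dyes. The protocols give Cy3 for channel 1 and Cy5 for channel 2 on all 4 arrays, which is no dye swap. The fields give Cy5 in both channels of array 1 and exchanged dyes on array 4. Whether dyes were swapped is thus unclear, and a dye effect in the ratios was not tested. None of 8 airway marker genes was among the 244, so the labelled tissue could not be checked. Of 38 markers of other cell types 7 were listed. Of these 3 were higher and 4 lower, beside 76.6% higher and 23.4% lower among all 244 genes. In the authors' deposited table, the 2 listed of 7 blood cell markers lay on the side of mv, Atg1 and Uch. These were NimB2 at 0.80 (SD 0.67) and atilla at 0.74 (SD 0.48) in the authors' deposited table. For muscle, neurons and gut 1 marker each was listed, of 7, 5 and 6. In the authors' deposited table these were Mf at -1.09 (SD 0.75), fne at -0.95 (SD 0.84) and Jon99Fi at -1.58 (SD 1.20). They stood on the side of Rpt6 and APP-BP1. The 2 listed of 7 fat body markers were split, with Tsf1 at 0.70 (SD 0.40) and Lsp2 at -0.86 (SD 0.41) in the authors' deposited table. Their part in the ratios below was not tested.

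The vesicular genes were both higher. The highest of the 5 was mv, which encodes a large BEACH-domain protein related to the human lysosomal trafficking regulator LYST and limits the size of lysosomes and related organelles. The authors' deposited table gave mv a log2 ratio of 1.30 (SD between spots 0.33, from 6 spots), a 2.46-fold difference. Of the 187 higher genes in the authors' deposited table, 39 had a larger ratio and 146 a smaller one. Its spread was small for its mean: 11 of the 244 genes had a smaller coefficient of variation, the SD divided by the size of the mean, than the 0.25 of mv in the authors' deposited table. By the SD itself, 33 of the 244 genes had a smaller value. Its 6 spots were the lowest number among the 244 genes, which 73 of them had, Rpt6 included. The mean of mv lay more than 2 SD from 0, with 0.64 to 1.96 as the range of 2 SD around it. In the file mv carried the gene ontology terms lysosomal transport, protein targeting and defense response.

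Atg1, the serine/threonine kinase that starts autophagosome formation, was higher by a smaller amount. For Atg1 the ratio was 0.69 (SD between spots 0.42, from 8 spots) on the log2 scale in the authors' deposited table, a 1.61-fold difference. That placed it near the edge of the selection, which ended at 0.59 on the higher side, with 21 of the 187 higher genes below it and 161 above it. A range of 1 SD around Atg1 ran from 0.27 to 1.11 and one of 2 SD reached below 0, to -0.15. mv exceeded Atg1 by 0.61, slightly more than the 0.53 given by the root of their summed squared SDs, while their ranges of 1 SD still met. As the SDs are spreads between spots and not replicate errors, this is a description and not a test.

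**Figure D1:**
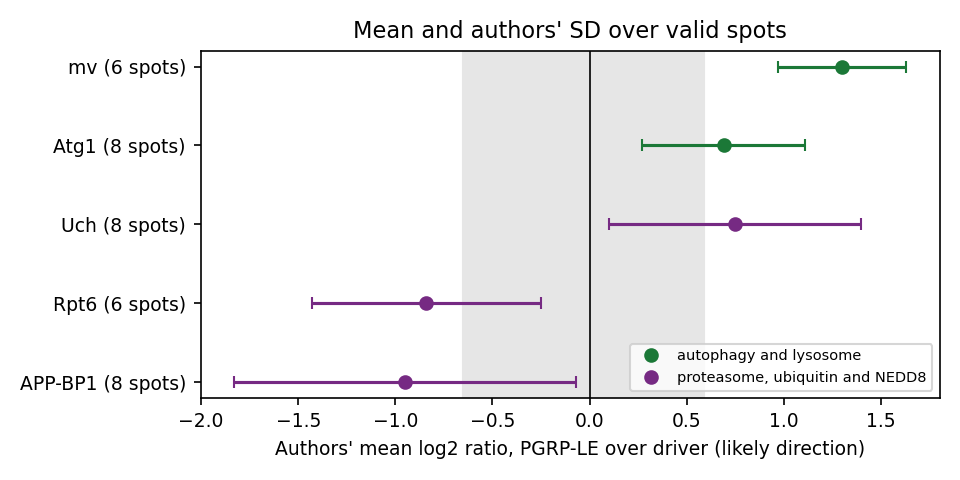
Mean log2 ratio of the 5 genes (points, horizontal axis, log2) with the authors' SD over valid spots (bars), autophagy and lysosome genes in green and proteasome, ubiquitin and NEDD8 genes in purple. The grey zone from -0.65 to 0.59 holds no selected gene. The range of mv, 0.97 to 1.63, lies wholly outside it.

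The 3 genes on the proteasome and ubiquitin side did not share a direction. Uch, a ubiquitin C-terminal hydrolase that frees ubiquitin from small adducts, was higher. Its log2 ratio was 0.75 (SD between spots 0.65, from 8 spots) in the authors' deposited table, a 1.68-fold difference. Its spread was wide, and 23 of the 244 genes had a larger coefficient of variation than its 0.87. Uch and Atg1 differed by 0.06, far less than either SD.

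Rpt6, one of the ATPases in the base of the proteasome's regulatory particle that unfold substrates, was lower. The log2 ratio of Rpt6 was -0.84 (SD between spots 0.59, from 6 spots) in the authors' deposited table, which is 1.79-fold lower. It stood in the middle of the 57 lower genes, with 34 of larger and 20 of smaller size. Its range of 1 SD ran from -1.43 to -0.25, and one of 2 SD crossed 0, to 0.34. The fly genome also holds Rpt6R, a related gene, and whether the probe told these genes apart was not tested.

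APP-BP1, which pairs with Uba3 to form the enzyme that activates NEDD8, was the lowest of the 5. Its log2 ratio was -0.95 (SD between spots 0.88, from 8 spots) in the authors' deposited table, which is 1.93-fold lower. It was also the least precise of the 5: 8 of the 244 genes had a larger coefficient of variation than its 0.93, and the largest was 0.97. A range of 1 SD around APP-BP1 came within 0.07 of 0. APP-BP1 and Rpt6 differed by 0.11, well inside both SDs.

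**Figure D2:**
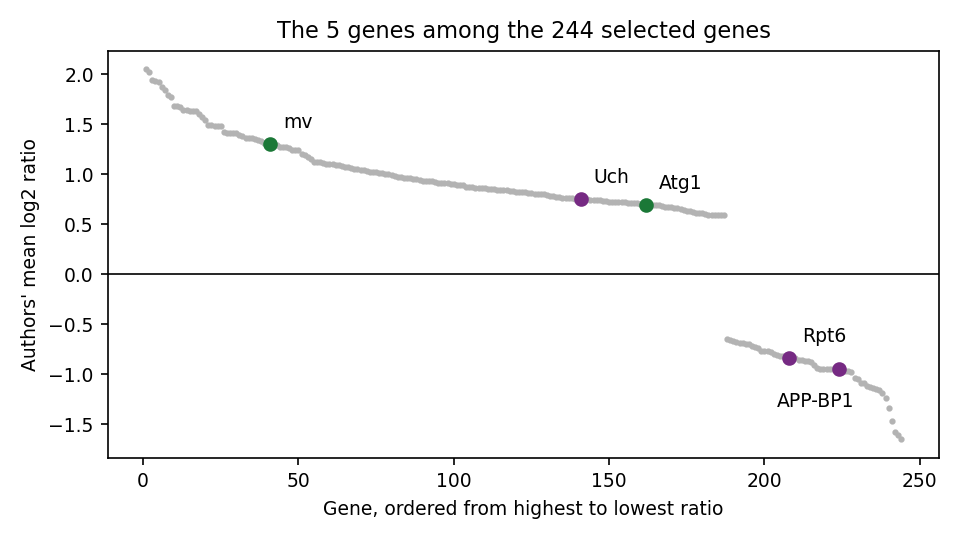
Mean log2 ratios of all 244 selected genes (grey, vertical axis) in order from highest to lowest (horizontal axis), with the 5 genes in colour (green, autophagy and lysosome; purple, proteasome, ubiquitin and NEDD8). mv ranks 40th from the top, shared with genes of equal ratio, while Uch and Atg1 sit on the long shallow part of the curve and Rpt6 and APP-BP1 on the short lower arm.

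Taking the 5 genes by direction, 3 were higher and 2 were lower, beside 76.6% higher and 23.4% lower among all 244 genes. Since the authors' selection used the same ratios, nothing is read from that count. The coefficient of variation was at most 0.97 in all 244 genes, so no range of 1 SD in the table reaches 0 and the 6 pairings of a higher with a lower gene could not meet. In the 4 remaining pairs of the 10 the ranges of 1 SD met. With ranges of 2 SD, mv and Rpt6 were the only pair still apart. They were selected on opposite sides of 0 and the SD is a spread between spots, so this separation is a description and not a test. By the same measure, mv alone of the 5 lay more than 2 SD from 0, beside 33.2% of all 244 genes. mv was likewise the only 1 with a log2 size of at least 1, beside 38.9% of all 244. The spread of the 5 genes ran from 0.33 to 0.88, around the median SD of 0.52 in the authors' deposited table.

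**Figure D3:**
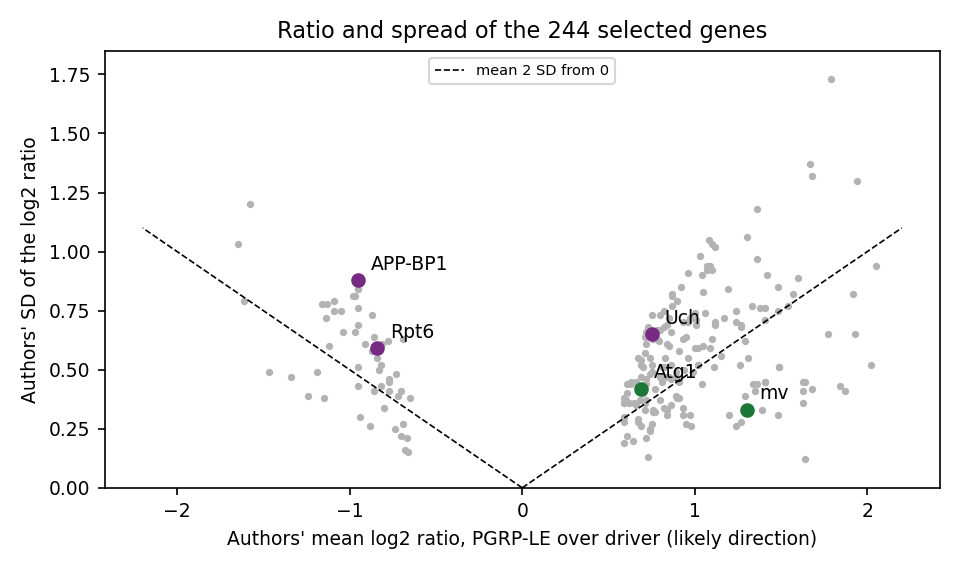
Authors' SD (vertical axis, log2) against mean log2 ratio (horizontal axis) for the 244 selected genes (grey) and the 5 genes (green, autophagy and lysosome; purple, proteasome, ubiquitin and NEDD8). Below the dashed lines a mean lies more than 2 SD from 0; mv lies below them, and Atg1, Uch, Rpt6 and APP-BP1 lie above.

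Set side by side, the vesicular genes had a median of 0.995 and the proteasome and ubiquitin genes a median of -0.84, a difference of 1.835 on the log2 scale. With 2 genes against 3, and Uch on the side of the vesicular genes, this is a description of the 5 chosen genes. It was 1.095 without Rpt6, 1.04 without APP-BP1 and 0.79 for the 3 genes with at least 8 valid spots. It was smaller still over more genes of the table. Words for vesicles, endosomes, lysosomes, vacuoles, endocytosis and autophagy on one hand, and for ubiquitin and the proteasome on the other, were searched in the file's gene ontology terms, a choice made after the values were seen. Together with the 5 genes this gave 5 vesicular genes with a median of 0.75 and 7 ubiquitin-proteasome genes with a median of 0.63, which differ by 0.12.

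All 5 vesicular genes were higher, as were 76.6% of the 244 genes. Beside mv and Atg1 they were CHOp24, a p24-family protein of transport vesicles in the early secretory pathway, Arf6, a small GTPase of endocytic traffic, and Amph, the membrane-shaping protein amphiphysin. CHOp24 stood at 0.85 (SD between spots 0.47), Arf6 at 0.75 (SD between spots 0.73) and Amph at 0.61 (SD between spots 0.44) in the authors' deposited table, each over 8 spots. The range of 1 SD around mv met those of these 3 genes.

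Of the 7 ubiquitin-proteasome genes, 4 were higher and 3 were lower, beside 23.4% lower among the 244. With Uch on the higher side stood the deubiquitinating protease gene Usp2, at 0.69 (SD between spots 0.26, from 8 spots), and CG33144, annotated as a ubiquitin ligase, at 0.78 (SD between spots 0.67, from 6 spots), in the authors' deposited table. Both genes of the table annotated with protein deubiquitination, Uch and Usp2, were thus higher, as were 76.6% of the 244 genes. With Rpt6 and APP-BP1 on the lower side stood CG4502, annotated as a ubiquitin conjugating enzyme, at -0.95 (SD between spots 0.69, from 8 spots) in the authors' deposited table. The proteasome genes listed lay on both sides: Prosalpha1R, a copy of the gene for a subunit of the proteolytic core, stood at 0.63 (SD between spots 0.45, from 8 spots) in the authors' deposited table, against -0.84 for Rpt6 of the regulatory particle. Whether the probe of Prosalpha1R also detected Prosalpha1 was not tested.

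**Figure D4:**
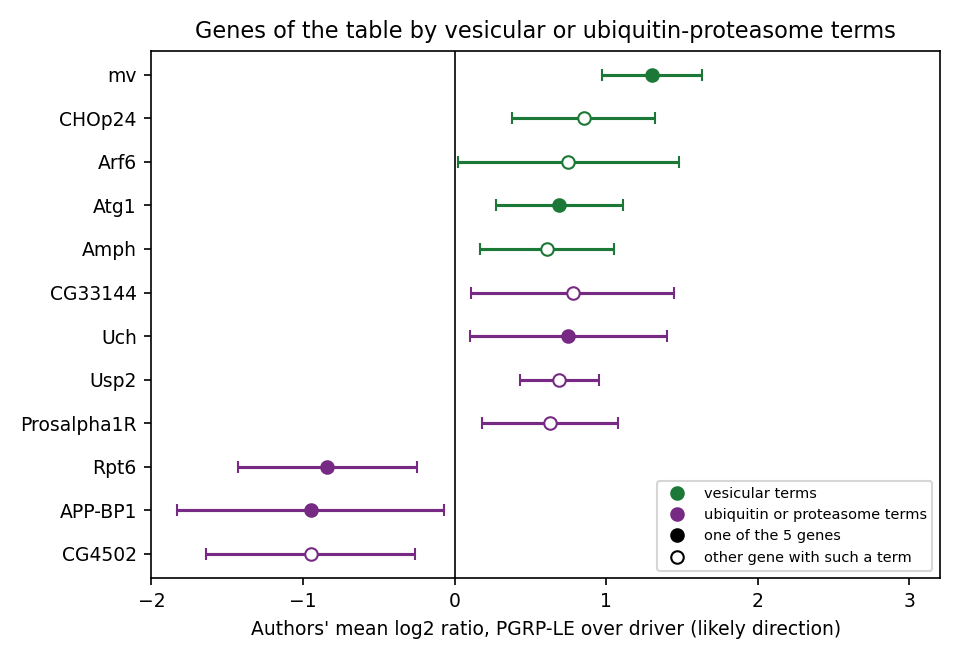
Mean log2 ratio (points, horizontal axis) and authors' SD (bars) of the genes with vesicular terms (green, top) and with ubiquitin or proteasome terms (purple, bottom), filled for the 5 genes and open for other genes. APP-BP1 is included without a term in the file. All 5 vesicular genes lie right of 0, while the other group has 4 genes right of 0 and 3 left of it.

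None of the partners of the 5 genes that are named here was among the selected genes. Of 29 autophagy genes in a list drawn up from textbook knowledge, Atg1 alone was among the 244, so Atg13, Atg17 and Atg101 of its kinase complex and the Atg8 genes have no value here. Of 49 genes of lysosomes and lysosomal traffic the table held mv alone, without bchs and rg, other BEACH-domain genes, and of 17 proton pump (V-ATPase) genes it held none. Rpt6 was the single one of 36 proteasome genes, and none of the other ATPases Rpt1 to Rpt5 was listed. That list did not include Prosalpha1R. Of 41 genes for ubiquitin, its conjugating enzymes and its proteases, the table held Uch and Usp2. That list did not include CG4502 and CG33144, which were found by their terms, CG4502 lower and CG33144 higher. Of 29 NEDD8 and SUMO pathway genes the table held APP-BP1 alone. Uba3 and Nedd8 were not listed. Across the 6 lists the table thus held 6 of 201 genes. Of these 4 were higher and 2 lower, beside 76.6% higher and 23.4% lower among all 244, which is close to that split. The 5 genes were taken from the 244, so their presence was set beforehand, and Usp2 was the only other gene of these lists. The lists are not complete, so the counts depend on which genes they name. The share of all genes on the arrays that was selected was not known here, so the counts give no rate for a pathway. Of 20 genes of IMD signalling and its ubiquitin machinery it held Rel, which encodes the NF-kappa B factor Relish, at 0.96 (SD between spots 0.70) in the authors' deposited table. The table lists selected genes alone, so the levels of the genes not listed are not known.

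Positions and names give some limits on single genes. By gene order in the RefSeq annotation of Drosophila Release 6, Rpt6 overlaps CG1801, mv overlaps SCOT and antisense RNAs, Atg1 overlaps CG42709 and APP-BP1 overlaps CG33947. None of these partners was among the 244 genes, and which strand or exon the probes cover was not known here. One direct neighbour was listed: Irbp18, next to APP-BP1, stood on the opposite side at 0.74 (SD between spots 0.24, from 8 spots) in the authors' deposited table. Genes of the table with close CG numbers were also looked up. Those found lie on other chromosome arms, so nothing about mv or Uch is read from them. Within 20 numbers of mv lay Obp56a, an odorant-binding protein gene on another chromosome arm, with the same ratio of 1.30 (SD between spots 1.06) in the authors' deposited table. Within 20 numbers of Uch lay CG4281, also on another arm, at -1.24 (SD between spots 0.39) in the authors' deposited table. Atg1, Rpt6 and APP-BP1 had no such partner.

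The 5 genes shared few annotations. Uch and Rpt6 had in common ubiquitin-dependent protein catabolism, a term that 3 genes of the table carried, and proteolysis and peptidolysis, carried by 15. Of those 15 genes, 10 were higher. Atg1 and Rpt6 shared ATP binding, which 7 genes of the table carried, 5 of them higher. Both counts are near the 76.6% higher among all 244 genes. APP-BP1 had no term in the file, like others among the 244, of which 152 had at least 1.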

How the data were processed

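Per the series' design text, the authors selected genes from the output of SAM and GeneTraffic. Per the file headers, the deposited table gives per gene a mean log2 ratio, its standard deviation on the log2 scale, the number of valid spots and the coefficient of variation, a ratio of spread to mean. The sources used here do not state how background, dyes and weak spots were handled or where the selection limits lay. The deposited spot table holds a signed score per spot, whose scale, centring and direction stay unknown. Its rows carry spot numbers alone. The planned limma fit, likeness of pattern over arrays and counts of calls were therefore not run, and the authors' table is given without tests.

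Gene numbers were matched to RefSeq (227 by locus tag, 13 by an older identifier or synonym, 4 unmatched). Ranks, ranges of 1 and 2 SD and differences were computed with Python 3.11.15, numpy 2.4.6 and pandas 2.3.3. The ranks and the check of means against 2 SD were tested on simulated data, and the ranges of 1 SD and the differences were not. The named genes are the 5 genes and the list members in the table. Genes found by ontology term, number or position were named after their values were seen. The genes and lists were chosen with earlier results of these data known. Alternatives were the turned ratio, other matching of lists, at least 8 spots, size and variation limits, and leaving out genes.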

Additional observations from a re-analysis of the deposited data

How the results depend on the processing

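Reading the ratio the other way turns every sign: mv to -1.30, Uch to -0.75, Atg1 to -0.69, Rpt6 to 0.84 and APP-BP1 to 0.95. It turns the difference between the vesicular and the proteasome and ubiquitin genes to -1.835, and gives 2 higher genes in place of 4 across the 6 lists and 2 in place of 3 among the 5 genes. The difference between the medians, 1.835 as reported, was 1.095 without Rpt6, 1.04 without APP-BP1, 0.79 with at least 8 valid spots and 0.12 over all genes with the searched terms. These are smaller because other genes enter or leave the medians. Without Atg1, mv or Uch, or with means, it lay between 1.34 and 2.14. Of the 3 higher genes, 1 is left with a coefficient of variation under 0.5 and 1 with a log2 size of at least 1, mv in both cases. Matching the lists on current symbols alone changed no count of listed genes. Alternatives that leave out genes or spots were chosen after seeing the data. Leaving out arrays or replicates, centring, random blocks and single spots were not run, as the gene values are pooled over arrays. No paired analysis was possible because only 1 group ratio is listed for each gene. The 2 biological replicates limit the precision, and the spots, 6 or 8 for each of the 5 genes, do not add replicates.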
